A study of Arabidopsis thaliana with 12 samples.

Results

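The SAUR (small auxin up RNA) genes of Arabidopsis thaliana were followed through 3 h of UV-B light or the hormone abscisic acid (ABA), which plants make under water shortage. A locus was taken as a SAUR gene when its name in the deposited tables began with SAUR or its description there contained SAUR. This gave 48 of the 32833 loci, of which 25 carried a SAUR name in the tables and 23 are named here by their RefSeq synonym. Of these, 38 reached 1 TPM (a transcript level scaled for length and for the library's total) in at least 3 of the 12 libraries and are described and tested. The others, SAUR2, SAUR17, SAUR18, SAUR33, SAUR40, SAUR43, SAUR47, SAUR58, SAUR70 and SAUR75, fell short. SAUR18, SAUR40, SAUR43 and SAUR47 were listed at 0 in every library, and the highest value among the 10 was 1.26 TPM, for SAUR33 in 1 library. Just inside the limit, SAUR61 and SAUR68 reached 1 TPM in 4 libraries and SAUR76 in 5, with maxima of 1.41, 1.95 and 2.36 TPM. RefSeq gives SAUR names to 31 further loci of the tables that the rule does not take in, and names 1 more, AT5G01830, SAUR21 like a member, so that it was set aside. The set is thus not the whole family.

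SAUR genes encode short plant proteins whose transcripts rise within minutes of auxin and turn over fast. The best studied members bind and inhibit PP2C-D phosphatases, which relieves the plasma membrane proton pumps (AHA proteins) from dephosphorylation, acidifies the cell wall and lets cells expand. In seedlings they act in hypocotyl and cotyledon growth, where light, auxin, brassinosteroids and PIF transcription factors set their transcript levels.

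All plants were 10-day-old seedlings from a cycle of 16 h of light and 8 h of darkness, with 3 libraries a group. Wild-type Col-0 seedlings were kept in white light, given UV-B of 5 µmol m-2 s-1 in addition, or given 50 µM ABA instead, and uvr8 seedlings received the UV-B treatment. The groups other than ABA had a mock solution. The labels do not name the uvr8 allele, a mutation in the gene of the UV-B photoreceptor UVR8, and no uvr8 library in white light or with ABA was analysed here, so an effect of the mutation and of its response to UV-B cannot be told apart. UVR8 itself lay between 20.78 and 23.61 TPM in uvr8 and between 66.88 and 107.46 TPM in the Col-0 libraries. The libraries are of bulk tissue, so fewer cells of a type and less RNA per cell cannot be told apart. Summed shoot markers (4 photosynthesis genes, none at 0 throughout) lay between 6985.4 and 8315.5 TPM in white light, 8392.2 and 9309.4 with UV-B, 7260.7 and 8243.0 in uvr8 and 6124.2 and 7231.8 with ABA. RBCS1A and LHCB2.1 of these were called higher with UV-B, and RBCS1A and PSBO1 lower with ABA. LHCB2.1 was called lower in uvr8 than in Col-0 under UV-B. The 6 root markers summed to 308.8 to 341.6 TPM in white light, 218.8 to 272.6 with UV-B, 261.4 to 287.8 in uvr8 and 346.2 to 465.6 with ABA, most of it PYK10. With ABA PYK10 was called higher and the root genes SHR and NRT2.1 lower. With UV-B PYK10, SHR and NRT2.1 were all called lower, and SHR and NRT2.1 were higher in uvr8 than in Col-0 under UV-B. The root-hair gene COBL9, the endodermal gene CASP1 and the iron transporter gene IRT1 stayed below 1 TPM in every library. Guard cell markers (3 genes) summed to 25.5 to 26.0 TPM in white light, 21.0 to 23.7 with UV-B, 24.7 to 26.2 in uvr8 and 13.7 to 16.4 with ABA, where FAMA and HT1 were called lower and SLAC1 higher. Their part in the results on SAUR genes was not tested. TPM carries no read number, so library depths are unknown. Between 18557 and 19214 genes reached 1 TPM in each library.

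The members share a compact gene structure. In the RefSeq TAIR10.1 annotation the coding sequence of 47 of the 48 was a single piece, and it encoded 88 to 190 amino acids with a median of 120. Exons summed to 427 to 1529 bases, with a median of 791.5. Of the 48, 24 lay in 6 groups of neighbours less than 10000 bases apart. The largest groups held SAUR49, SAUR50, SAUR1, SAUR2, SAUR4 and SAUR5 at chr4:16577180-16599568 and SAUR19 to SAUR24 at chr5:5962773-5984308. SAUR61 to SAUR65 lay at chr1:10301377-10308246. Copies with at least 90% identity over at least 150 bases joined SAUR62 with SAUR75 (95.1%), SAUR63 with SAUR67 (95.3%), SAUR19 with SAUR24 (93.0%) and SAUR20 with SAUR24 (90.6%). The labels do not say how reads were divided between such copies, so the split of level within these pairs is uncertain.

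The sequence before the start of the gene was searched on both strands, from 250 bases before to 50 bases after the annotated start, for 6 short motifs. CACATG, a PBE-box, the E-box variant that PIF factors bind, was found in 19 of the 38 described members (50.0%) and in 20 of all 48. It was found in 12.76% of the windows of 18855 tested coding genes and in 12.91% of those of 27443 coding genes. The auxin response element TGTCTC was found in 7 members (18.42%, against 13.52% of tested genes), and its variant TGTCGG in 2 (5.26%, against 5.83%). The brassinosteroid response element CGTGTG was found in 2 (5.26%, against 6.8%). ACGTGTC, the core of an ABA response element, was found in SAUR36 alone (2.63%, against 5.15%). CACGTG, the G-box, was found in none of the members and in 9.07% of tested genes. CACATG and its reverse complement CATGTG can overlap each other by 4 bases, and none of the other motifs contains another. A match describes letters and is not a binding site.

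A choice of these upstream windows is shown as the RefSeq TAIR10.1 genome gives them, because their genes carry the contrasts described below. SAUR5, SAUR15 and SAUR62 hold CACATG and are among the 6 named members with the largest falls with ABA. SAUR6 holds it as well and moved in opposite directions with UV-B and ABA. SAUR36, SAUR71 and SAUR72 do not hold it and did not fall with ABA. Most described members without it did fall, as 13 of the 19 were lower with ABA, where 39.4% of all tested genes were. The windows shown were picked by these changes. Each is the 250 bases before the gene, 5′ to 3′ on the gene's strand, with matches to the 6 motifs on either strand in capitals. SAUR5 is at chr4:16598708-16598957 (+ strand), SAUR15 at chr4:18125807-18126056 (+ strand), SAUR62 at chr1:10303419-10303668 (- strand), SAUR6 at chr2:9086030-9086279 (- strand), SAUR36 at chr2:18641313-18641562 (+ strand), SAUR71 at chr1:21017061-21017310 (+ strand) and SAUR72 at chr3:4079628-4079877 (- strand).
SAUR5: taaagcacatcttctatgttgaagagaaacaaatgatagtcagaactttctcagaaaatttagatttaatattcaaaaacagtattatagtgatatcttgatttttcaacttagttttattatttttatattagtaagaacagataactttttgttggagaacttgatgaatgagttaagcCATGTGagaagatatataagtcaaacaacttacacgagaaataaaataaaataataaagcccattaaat
SAUR15: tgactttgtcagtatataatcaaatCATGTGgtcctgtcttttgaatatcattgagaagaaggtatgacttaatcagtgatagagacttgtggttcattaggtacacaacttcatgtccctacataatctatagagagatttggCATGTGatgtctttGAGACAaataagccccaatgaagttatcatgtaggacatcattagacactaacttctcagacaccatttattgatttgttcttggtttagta
SAUR62: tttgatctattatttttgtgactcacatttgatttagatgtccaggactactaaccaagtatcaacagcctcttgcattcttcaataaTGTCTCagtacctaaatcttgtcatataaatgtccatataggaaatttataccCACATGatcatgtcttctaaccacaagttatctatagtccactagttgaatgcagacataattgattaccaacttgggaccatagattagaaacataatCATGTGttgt
SAUR6: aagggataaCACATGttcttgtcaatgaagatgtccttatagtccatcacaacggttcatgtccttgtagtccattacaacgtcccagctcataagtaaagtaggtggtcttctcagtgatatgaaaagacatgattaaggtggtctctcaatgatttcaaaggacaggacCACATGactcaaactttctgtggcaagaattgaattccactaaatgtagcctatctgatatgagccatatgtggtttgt
SAUR36: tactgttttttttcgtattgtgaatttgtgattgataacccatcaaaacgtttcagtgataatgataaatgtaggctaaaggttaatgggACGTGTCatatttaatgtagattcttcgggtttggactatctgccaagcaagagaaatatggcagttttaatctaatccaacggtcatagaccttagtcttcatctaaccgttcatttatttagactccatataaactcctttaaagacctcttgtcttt
SAUR71: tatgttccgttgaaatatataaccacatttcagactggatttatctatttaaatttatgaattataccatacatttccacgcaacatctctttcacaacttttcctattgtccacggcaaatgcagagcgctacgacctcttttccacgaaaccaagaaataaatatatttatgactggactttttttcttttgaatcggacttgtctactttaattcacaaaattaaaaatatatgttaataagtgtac
SAUR72: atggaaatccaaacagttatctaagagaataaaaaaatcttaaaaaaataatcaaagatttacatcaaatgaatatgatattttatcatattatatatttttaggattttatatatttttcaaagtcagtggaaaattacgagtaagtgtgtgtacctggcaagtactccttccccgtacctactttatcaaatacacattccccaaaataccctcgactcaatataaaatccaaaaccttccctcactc
The capitals in SAUR5 are 1 CACATG match, starting 69 bases before the gene and read on the other strand. SAUR15 holds 2 such matches and TGTCTC read on the other strand as GAGACA, and SAUR62 holds 2 and TGTCTC. SAUR6 holds 2 CACATG matches. In SAUR36 the capitals are the ACGTGTC match, which starts 160 bases before the gene. No capital stands in the windows of SAUR71 and SAUR72.

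In white light the 38 described members spanned a wide range of levels, and the order given here is among them alone. SAUR78, a member of the SAUR76 to SAUR79 subfamily whose proteins bind ethylene receptors, was the highest at 73.1 ± 4.86 TPM (SD, n = 3), followed by SAUR6 at 56.8 ± 2.44 TPM. The next was SAUR63, whose subfamily promotes elongation of hypocotyls and stamen filaments, at 32.0 ± 3.53 TPM. SAUR1 followed at 27.6 ± 3.15 TPM and SAUR50 at 25.8 ± 3.46 TPM, and the ranges of these 3 genes over libraries overlapped. Of the 38, 2 averaged 50 TPM or more in white light, 16 between 10 and 50, 18 between 1 and 10, and 2 under 1 TPM. With UV-B these counts were 2, 4, 26 and 6, in uvr8 under UV-B 2, 13, 23 and 0, and with ABA 0, 6, 19 and 13. The median of the members' mean levels was 9.21 TPM in white light, 4.17 with UV-B, 7.56 in uvr8 and 2.30 with ABA. The spread between the 3 libraries of a group, as the median coefficient of variation over members, was 13.9% in white light, 18.4% with UV-B, 20.1% in uvr8 and 30.7% with ABA.

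Summed over the 48 genes, SAUR transcripts made up 484.77, 469.92 and 502.84 TPM in white light and 313.27, 335.3 and 333.15 TPM with UV-B. The sum was 410.23, 430.06 and 500.36 TPM in uvr8 under UV-B and 216.9, 234.4 and 231.11 TPM with ABA. The UV-B and ABA libraries all lay below the white-light libraries, the ABA libraries lowest. In uvr8 the library at 500.36 TPM reached the white-light range, and those at 410.23 and 430.06 TPM lay below it. The sums are given without a test. The SAUR19 to SAUR24 subfamily, which promotes hypocotyl cell expansion, summed to 61.84, 47.59 and 59.77 TPM in white light and 20.13, 30.15 and 24.42 TPM with UV-B. It summed to 43.59, 48.39 and 58.38 TPM in uvr8 and 15.45, 12.91 and 13.19 TPM with ABA. The SAUR61 to SAUR68 and SAUR75 subfamily had means of 93.6, 45.3, 75.8 and 21.8 TPM in white light, UV-B, uvr8 and ABA. Its uvr8 libraries (66.79 to 85.05 TPM) lay below its white-light libraries (89.58 to 96.34 TPM). The subfamily of SAUR40, SAUR41, SAUR71 and SAUR72 had 30.43, 31.93 and 32.67 TPM in white light. With ABA it had 48.87, 53.02 and 55.53 TPM, so its ABA libraries lay above every other library. Most of this rise was SAUR72, with means of 9.16 TPM in white light and 28.4 TPM with ABA. SAUR41 and SAUR71 were not called with ABA, and SAUR40 was listed at 0 throughout. Of the sum over the 48 genes, SAUR6 and SAUR78 together held 26.7% ± 1.16 in white light and 46.5% ± 3.25 with UV-B. Their share was 28.7% ± 1.73 in uvr8 and 21.2% ± 1.29 with ABA. SAUR genes outside the rule are not in this sum.

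**Figure D1:**
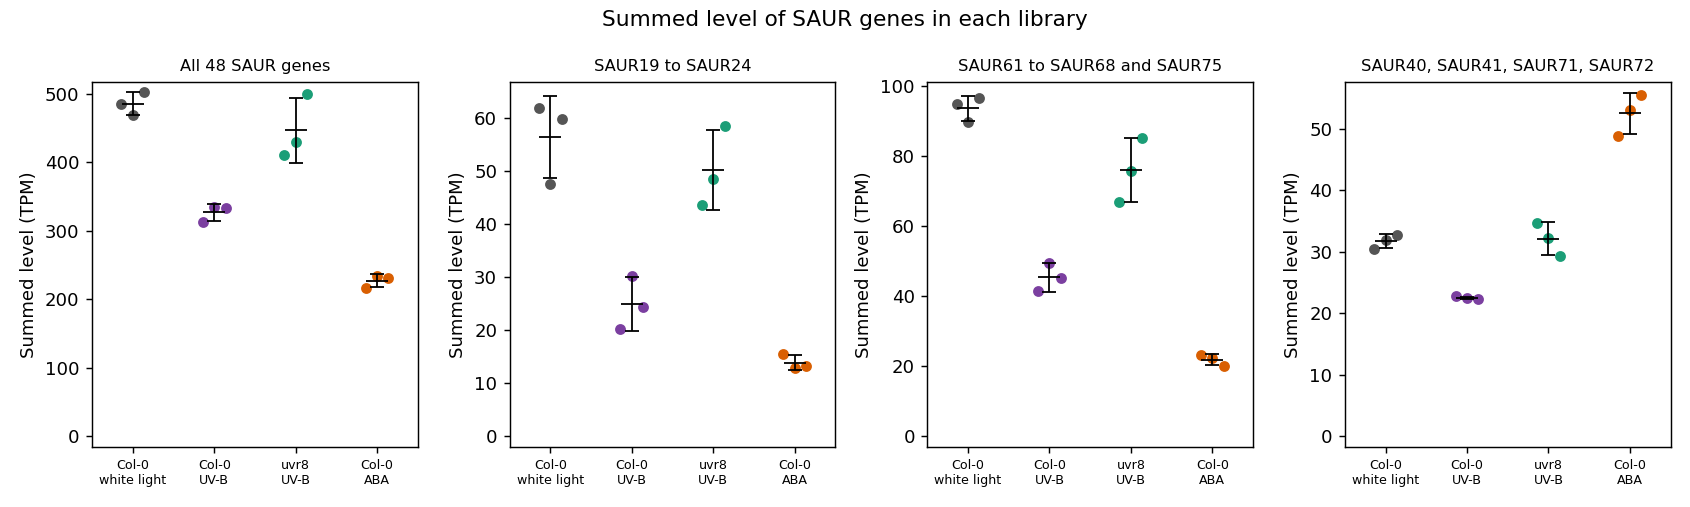
Summed level in TPM of all 48 SAUR genes and of 3 subfamilies in each library, by group. Points are libraries and bars are the mean with the SD of 3 libraries; the sum of all 48 lies between 313.27 and 335.3 TPM with UV-B and between 216.9 and 234.4 TPM with ABA, below the lowest white-light library at 469.92 TPM.

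UV-B lowered most SAUR genes of Col-0. Against white light, 27 of 38 members were lower (71.1%), where 27.8% of all 19922 tested genes were lower, and 3 were higher (7.89%), where 12.3% of all genes were (limma on log2(TPM + 1), Benjamini-Hochberg adjusted p below 0.05). A fall of at least 2-fold on that scale was seen in 15 members (39.5%) and in 2.62% of all genes, and a rise of that size in 0 members and 3.96% of all genes. The median change of the members was -0.85 log2 units, and that of all tested genes -0.15. After TMM-style scaling, which brings the median of all genes to 0.00, the members' median was -0.72, with 21 lower and 3 higher. The 3 UV-B libraries all lay below the 3 white-light libraries in 30 members (37.8% of all genes) and above them in 3 (16.4% of all genes).

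SAUR57 had 12.12, 8.35 and 10.15 TPM in white light and 1.07, 2.21 and 2.03 TPM with UV-B, and fell by 2.03 ± 0.31 (SE) log2 units (adjusted p = 0.000285). SAUR1 had 31.03, 24.8 and 27.11 TPM in white light and 5.96, 6.58 and 10.51 TPM with UV-B, and fell by 1.75 ± 0.22 (adjusted p = 7.03e-05). SAUR64, of the SAUR63 subfamily, had 13.48, 9.9 and 12.16 TPM in white light and 3.47, 2.61 and 3.44 TPM with UV-B, and fell by 1.62 ± 0.17 (adjusted p = 1.52e-05). In all 3 genes every UV-B library was far below every white-light library. SAUR19, whose protein inhibits PP2C-D phosphatases, had 6.74, 5.28 and 5.34 TPM in white light and 1.33, 1.44 and 1.06 TPM with UV-B, and fell by 1.57 ± 0.21 (adjusted p = 8.89e-05). SAUR5 had 11.16, 18.89 and 16.11 TPM in white light and 4.07, 3.81 and 7.86 TPM with UV-B, and fell by 1.42 ± 0.28 (adjusted p = 0.00172). SAUR13 was at 10.55, 9.76 and 9.89 TPM in white light and at 1.45 and 2.35 TPM and listed at 0 with UV-B, and was called lower (adjusted p = 0.00193). Its exons share 433 bases with AT4G38820 on the opposite strand, which was listed between 0 and 10.78 TPM, and the labels do not say whether counting used the strand. A listed 0 can be a failed estimate rather than an absent transcript.

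SAUR50, a gene that light raises in cotyledons and lowers in hypocotyls, had 29.47, 22.59 and 25.46 TPM in white light and 7.08, 13.81 and 10.87 TPM with UV-B, and fell by 1.25 ± 0.22 log2 units (adjusted p = 0.000761). SAUR71 had 12.21, 14.16 and 13.4 TPM in white light and 3.9, 4.78 and 6.64 TPM with UV-B, and fell by 1.25 ± 0.17 (adjusted p = 0.000105). SAUR36, known for promoting leaf senescence, had 13.77, 16.32 and 16.1 TPM in white light and 8.22, 7.68 and 9.78 TPM with UV-B, and fell by 0.78 ± 0.14 (adjusted p = 0.000937). None of these groups overlapped. SAUR15 (SAUR-AC1), long used as an early auxin response gene, had 8.45, 7.31 and 5.83 TPM in white light and 3.66, 6.19 and 3.41 TPM with UV-B. The ranges overlapped, and its fall of 0.62 ± 0.22 (adjusted p = 0.044) was lost in most alternatives. Its adjusted p was 0.158 after TMM-style scaling, 0.108 with a pseudocount of 0.1, 0.0699 with the replicate block, 0.0675 without the filter and 0.0505 with only these groups in the fit. It was between 0.105 and 0.153 without any of 4 of the 6 libraries compared.

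The members that rose with UV-B were SAUR6, SAUR72 and SAUR56. SAUR6 had 54.23, 56.95 and 59.09 TPM in white light and 79.84, 83.06 and 83.31 TPM with UV-B, and rose by 0.53 ± 0.08 log2 units (adjusted p = 0.000248), so that it became the highest SAUR gene in each UV-B library. Its exons share 176 bases with SAUR7 on the same strand, which lay between 0.18 and 2.89 TPM. SAUR72, whose protein binds PP2C-D phosphatases, had 8.92, 8.31 and 10.26 TPM in white light and 12.51, 10.48 and 11.01 TPM with UV-B. The libraries just did not overlap, and the rise of 0.28 ± 0.10 (adjusted p = 0.043) was not called without any of 4 of the 6 libraries (adjusted p between 0.0757 and 0.161). Nor was it called with the replicate block (0.0561), without the filter (0.0517) or with only these groups in the fit (0.0785). SAUR56, a low gene, had 1.4, 0.73 and 0.73 TPM in white light and 1.87, 2.25 and 1.57 TPM with UV-B, and its rise of 0.58 ± 0.18 (adjusted p = 0.0202) was not called with a pseudocount of 0.1 (adjusted p = 0.0848) or without any of 3 libraries (adjusted p between 0.0765 and 0.0821). Without any single library of the comparison, 1 or 2 members were called higher, and the count was 1 without white-light replicate 2. The other 8 members were not called. Among them SAUR78 had 68.81, 71.99 and 78.36 TPM in white light and 76.13, 62.12 and 71.43 TPM with UV-B, a change of -0.07 with a 95% interval of -0.28 to 0.15.

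**Figure D2:**
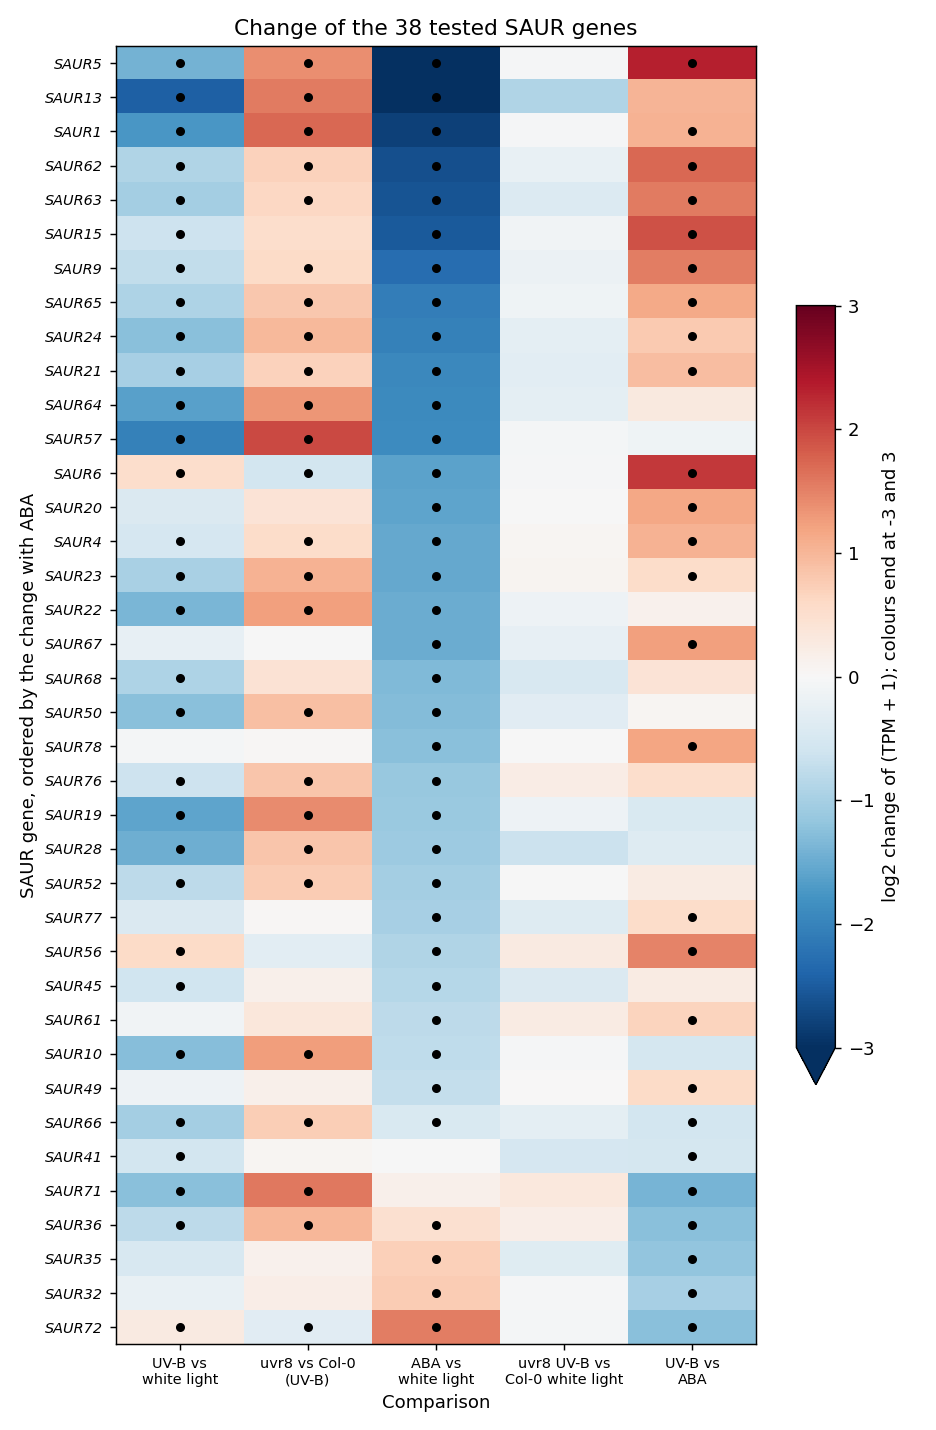
Change of the 38 tested SAUR genes (rows, ordered by the change with ABA) in 5 comparisons (columns), as the log2 change of TPM + 1, with blue for lower and red for higher in the group named first; a dot marks an adjusted p below 0.05. The UV-B and ABA columns are mostly blue with 27 and 32 members called lower, the uvr8 column mostly red with 23 called higher, and the column of UV-B-treated uvr8 against white-light Col-0 holds no dot.

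Under UV-B, most SAUR members had higher levels in uvr8 than in Col-0. Against Col-0 under the same UV-B, 23 of 38 members were higher (60.5%), where 32.8% of all tested genes were, and 2 were lower (5.26%), where 11.1% were. A difference of at least 2-fold upward was seen in 10 members (26.3%) and in 4.04% of all genes, and downward in 0 members and 3.51% of all genes. The members' median was 0.70 log2 units and that of all genes 0.20; after TMM-style scaling these were 0.50 and 0.00, with 16 members higher and 2 lower. This comparison shares its Col-0 UV-B libraries with the one above, so opposite signs in the pair are not independent evidence.

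SAUR57 had 6.88, 8.85 and 14.79 TPM in uvr8 and was 1.98 ± 0.31 (SE) log2 units above Col-0 under UV-B (adjusted p = 0.00032). SAUR1 had 22.47, 28.32 and 30.12 TPM in uvr8, 1.71 ± 0.22 above Col-0 (adjusted p = 7.88e-05). SAUR71 had 20.59, 17.08 and 13.55 TPM in uvr8, 1.57 ± 0.17 above Col-0 (adjusted p = 1.61e-05). Every uvr8 library of these genes lay above every UV-B library of Col-0, given above. SAUR19 had 6.34, 4.29 and 4.65 TPM in uvr8, 1.41 ± 0.21 above Col-0 (adjusted p = 0.00019). SAUR5 had 10.46, 14.96 and 20.47 TPM, 1.40 ± 0.28 above (adjusted p = 0.00171), and SAUR64 had 8.16, 9.16 and 10.96 TPM, 1.32 ± 0.17 above (adjusted p = 7.21e-05). In these as well the uvr8 and Col-0 libraries did not overlap. SAUR36 had 16.38, 18.27 and 19.18 TPM in uvr8, 0.99 ± 0.14 above Col-0 (adjusted p = 0.000156).

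The members that were lower in uvr8 were SAUR6 and SAUR72. SAUR6 had 52.57, 56.57 and 57.57 TPM in uvr8, below Col-0 under UV-B (-0.56 ± 0.08 log2 units, adjusted p = 0.000153). SAUR72 had 8.89, 8.69 and 8.42 TPM, a change of -0.35 ± 0.10 (adjusted p = 0.0144) that was not called without replicate 1 of Col-0 under UV-B (adjusted p = 0.055). Without that library the count of lower members was 1. SAUR13 was at 7.01, 1.47 and 9.39 TPM in uvr8, overlapping its Col-0 UV-B range, and its call (adjusted p = 0.0233) was lost without any of 3 libraries (adjusted p between 0.0834 and 0.0998) and with only these groups in the fit (0.0855). The calls of SAUR63 (0.62 ± 0.16, adjusted p = 0.00834) and SAUR24 (0.97 ± 0.28, adjusted p = 0.0152) were lost after TMM-style scaling, at adjusted p = 0.108 and 0.0765. That of SAUR24 was also lost without replicate 1 of Col-0 under UV-B (0.057) or replicate 3 of uvr8 (0.0503).

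**Figure D3:**
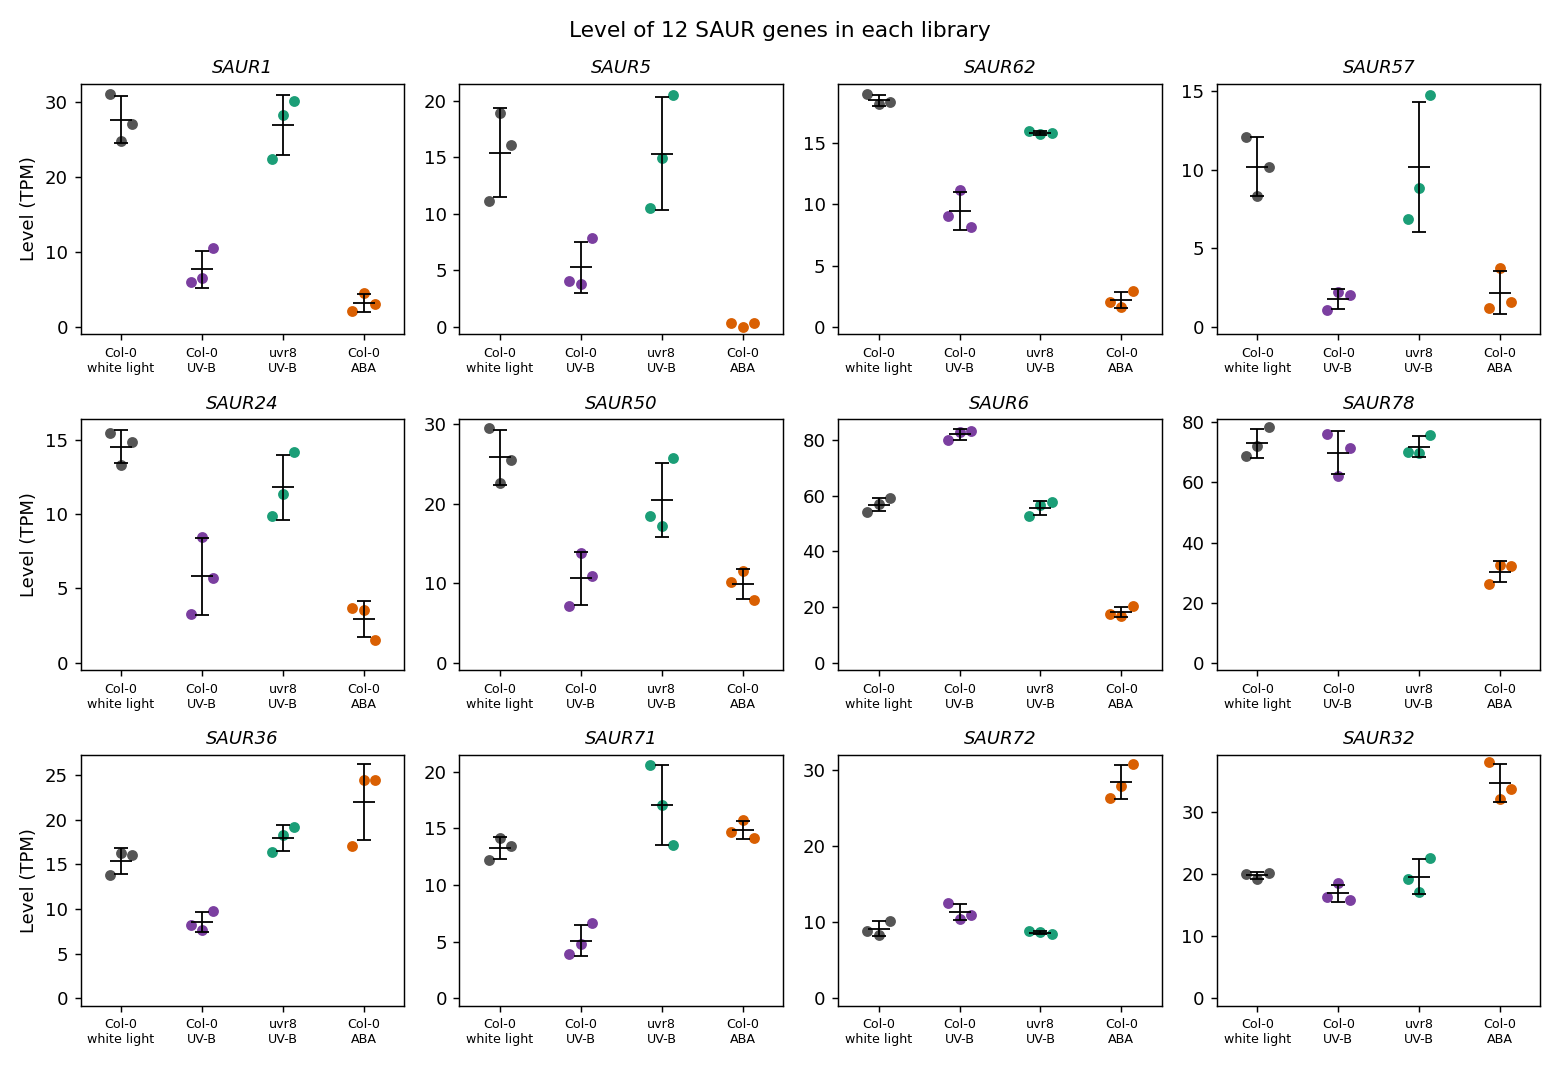
Level in TPM of 12 SAUR genes in each library, by group. Points are libraries, and bars are the mean with the SD of 3 libraries, left out where a library is listed at 0; SAUR6 is highest with UV-B between 79.84 and 83.31 TPM, and SAUR72 is highest with ABA between 26.44 and 30.86 TPM.

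None of the 38 tested members was called different between UV-B-treated uvr8 and white-light Col-0. With limma 0 members were higher and 0 lower, where 3.83% and 1.28% of all tested genes were; at an unadjusted p under 0.05, 0 members were higher (13.2% of all genes) and 5 lower (5.75% of all genes). The members' median was -0.12 log2 units with 30 of 38 below 0, and that of all genes 0.04; after TMM-style scaling these were -0.16, 31 and -0.01. The counts were also 0 and 0 after TMM-style scaling, without the trend and with the other settings of the fit, and only without uvr8 replicate 3 was 1 member called lower. The smallest adjusted p was 0.0962, for SAUR41, with 9.3, 9.46 and 9.01 TPM in white light and 5.21, 6.44 and 7.36 TPM in uvr8 under UV-B. Here the libraries did not overlap, and the change was -0.49 with a 95% interval of -0.83 to -0.16. The 95% intervals of 36 of the 38 members lay within 1 log2 unit of 0, with widths from 0.34 to 2.15. For SAUR6 the interval ran from -0.20 to 0.14, for SAUR1 from -0.53 to 0.45 and for SAUR63 from -0.76 to -0.05. The comparison joins genotype and light, which cannot be told apart in it.

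ABA lowered most SAUR genes of Col-0, many of them by several fold. Against white light, 32 of 38 members were lower (84.2%), where 39.4% of all tested genes were, and 4 were higher (10.5%), where 15.2% of all genes were. A fall of at least 2-fold was seen in 25 members (65.8%) and in 5.38% of all genes, and a rise of that size in SAUR72 alone (2.63%) and in 5.89% of all genes. The members' median was -1.31 log2 units and that of all genes -0.24; after TMM-style scaling these were -1.16 and -0.02, with 30 members lower and 4 higher. All 3 ABA libraries lay below all 3 white-light libraries in 32 members (45.6% of all genes) and above them in 5 (16.9% of all genes). The white-light libraries are the same as in the UV-B comparison.

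SAUR5 had the largest fall on the log2(TPM + 1) scale, from 11.16, 18.89 and 16.11 TPM in white light to 0.31 and 0.32 TPM and a listed 0 with ABA (log2 change -3.74 ± 0.28, adjusted p = 5.7e-07). SAUR13 was listed at 0 in all 3 ABA libraries, against 9.76 to 10.55 TPM in white light (adjusted p = 0.000103), and with a pseudocount of 0.1 its change was the larger (-6.67, against -5.87 for SAUR5). SAUR1 had 2.09, 4.5 and 3.1 TPM with ABA, a fall of 2.79 ± 0.22 log2 units or 8.56-fold in the means (adjusted p = 9.51e-07). In all 3 genes every ABA library lay far below every white-light library. SAUR62 had 19, 18.17 and 18.37 TPM in white light and 2.01, 1.66 and 2.94 TPM with ABA, a fall of 2.63 ± 0.14 (adjusted p = 3.66e-08). SAUR63 had 28.72, 31.67 and 35.74 TPM in white light and 3.57, 5.52 and 4.61 TPM with ABA, a fall of 2.58 ± 0.16 (adjusted p = 1.31e-07). SAUR15 had 0.64, 0.2 and 0.44 TPM with ABA, a fall of 2.52 ± 0.22 (adjusted p = 2.31e-06). In all 3 the ABA libraries stood apart from white light, and SAUR62 and SAUR63 belong to pairs of near-identical copies.

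The highest SAUR genes fell with ABA as well. SAUR6 had 17.57, 16.61 and 20.27 TPM with ABA, a fall of 1.60 ± 0.08 log2 units (adjusted p = 1.67e-08). SAUR78 had 26.16, 32.38 and 32.11 TPM, a fall of 1.25 ± 0.10 (adjusted p = 9.51e-07). Neither group overlapped white light. SAUR50 had 10.17, 11.57 and 7.92 TPM with ABA, a fall of 1.31 ± 0.22 (adjusted p = 0.000351). SAUR24, the highest of its subfamily, had 15.5, 13.32 and 14.88 TPM in white light and 3.71, 3.55 and 1.54 TPM with ABA, a fall of 2.04 ± 0.28 (adjusted p = 8.63e-05). SAUR9, whose protein binds PP2C-D phosphatases, had 6.21, 7.29 and 8.42 TPM in white light and 0.16, 0.85 and 1.32 TPM with ABA, a fall of 2.27 ± 0.22 (adjusted p = 3.92e-06).

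The members that rose with ABA were SAUR72, SAUR32, SAUR35 and SAUR36. SAUR72 had 26.44, 27.98 and 30.86 TPM with ABA, a rise of 1.54 ± 0.10 log2 units or 3.10-fold in the means (adjusted p = 1.78e-07). SAUR32, a gene of the apical hook, had 20.02, 19.2 and 20.23 TPM in white light and 37.96, 32.01 and 33.73 TPM with ABA, a rise of 0.77 ± 0.11 (adjusted p = 7.97e-05). Both stood clear of every white-light library, and with ABA SAUR32, SAUR78 and SAUR72 were the members with the highest means (34.6, 30.2 and 28.4 TPM). Over libraries SAUR78 overlapped both others. SAUR35 had 1.75, 2.33 and 1.64 TPM in white light and 3.69, 3.51 and 4.02 TPM with ABA, a rise of 0.71 ± 0.20 (adjusted p = 0.00988). SAUR36 had 17.06, 24.5 and 24.44 TPM with ABA, and its rise of 0.47 ± 0.14 (adjusted p = 0.0135) was not called without any of 3 of the 6 libraries (adjusted p between 0.054 and 0.0561). SAUR41 and SAUR71 were not called. SAUR71 had 14.71, 15.72 and 14.18 TPM with ABA, a change of 0.16 with a 95% interval of -0.21 to 0.52, and SAUR41 had 7.72, 9.32 and 10.49 TPM, a change of -0.02 with an interval of -0.36 to 0.32.

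Compared directly, the levels under UV-B and under ABA differed in 26 of the members. With UV-B 19 were higher than with ABA (50.0%), where 32.1% of all tested genes were, and 7 were lower (18.4%), where 23.9% were. The gap was at least 2-fold upward in 13 members (34.2%, against 8.13% of all genes) and downward in 4 (10.5%, against 7.71%). The widest gap upward was in SAUR5 (2.32 ± 0.28 log2 units, adjusted p = 1.98e-05), then in SAUR6 (2.12 ± 0.08, adjusted p = 7.12e-10) and SAUR15 (1.90 ± 0.22, adjusted p = 1.58e-05). The widest gap downward was in SAUR71 (-1.40 ± 0.17, adjusted p = 1.76e-05), with SAUR72 at -1.26 ± 0.10 and SAUR36 at -1.25 ± 0.14 (adjusted p = 5.63e-07 and 1.07e-05). SAUR6 and SAUR56 were called higher with UV-B and lower with ABA against white light, and SAUR36 lower with UV-B and higher with ABA. SAUR56 was at 0.1 TPM in 1 ABA library and listed at 0 in the others. SAUR57, SAUR50 and SAUR22 were lower with both treatments, and the gap between the treatments was -0.14, 0.06 and 0.12, with 95% intervals of -0.81 to 0.54, -0.41 to 0.54 and -0.42 to 0.67.

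Neighbouring genes mostly moved in the same direction but by different amounts. In the SAUR19 to SAUR24 group, 5 of 6 members were lower with UV-B and all 6 with ABA, where 27.8% and 39.4% of all tested genes were. Their changes ran from -1.57 to -0.43 and from -2.04 to -1.12 log2 units. The ends of these ranges are SAUR19, SAUR20 and SAUR24, which are joined as near-identical copies, so the split of level between them is uncertain. SAUR20, at 14.48, 7.4 and 12.21 TPM in white light and 7.2, 9.05 and 7.55 TPM with UV-B, was the member not called with UV-B, and its libraries overlapped. SAUR19, at the start of the group, changed by -1.57 with UV-B and -1.12 with ABA, and the treatments did not differ beyond the threshold (-0.45 ± 0.21, adjusted p = 0.0834). In the group on chromosome 4, 4 of 5 tested members were lower with UV-B and 5 of 5 with ABA, and the ABA changes ran from -0.71 in SAUR49 to -3.74 in SAUR5. SAUR49 was not called with UV-B, at 10.64, 10.04 and 11.41 TPM in white light and 9.6, 9.59 and 9.58 TPM with UV-B, a change of -0.14 with an interval of -0.36 to 0.07. SAUR2, in the same group, reached 1 TPM in 1 library.

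**Figure D4:**
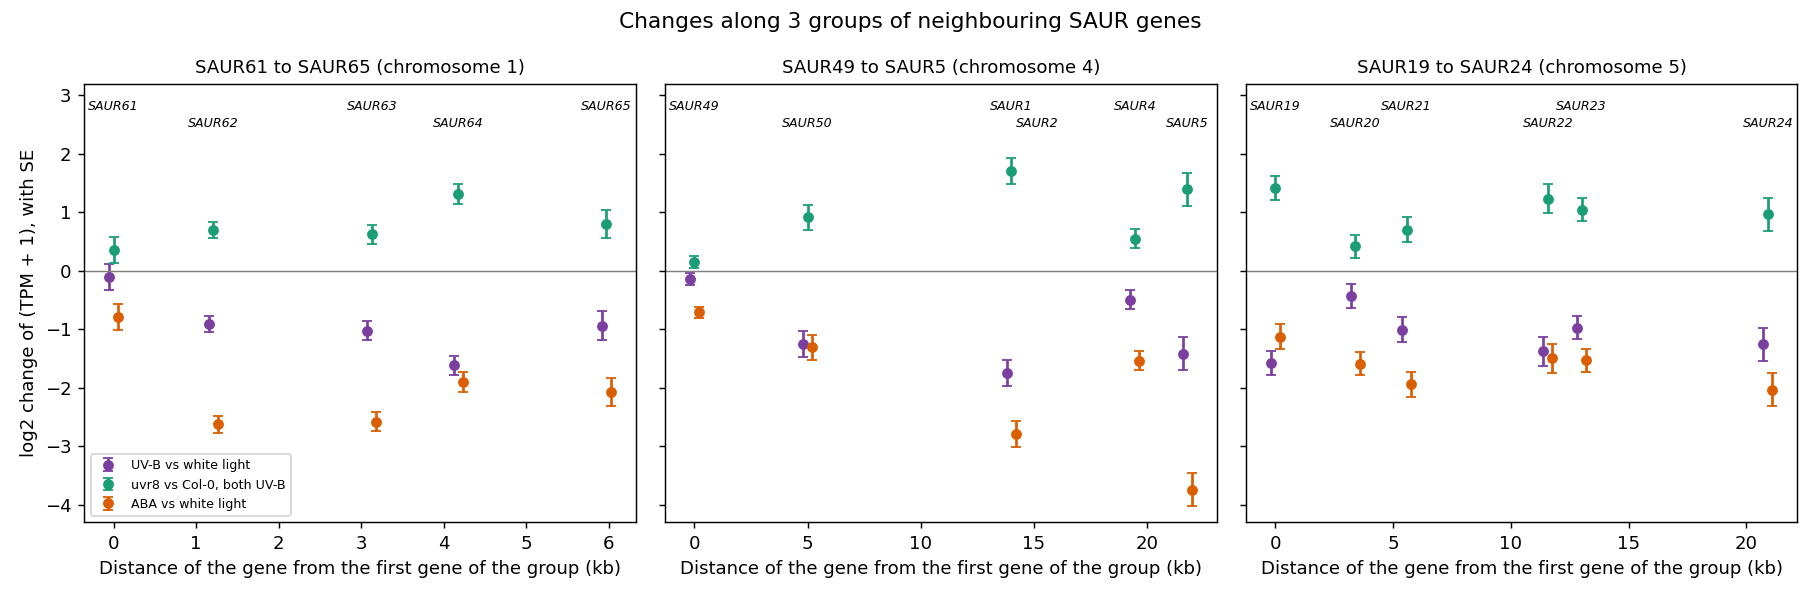
Log2 change of TPM + 1 with its SE (y axis) for the genes of 3 groups of neighbours against their distance in kb from the first gene of the group (x axis), for UV-B, uvr8 and ABA. In the middle group the ABA change reaches -3.74 in SAUR5 and is -0.71 in SAUR49; SAUR2 was not tested and has no point.

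In the SAUR63 subfamily 6 of 8 tested members were lower with UV-B (27.8% of all tested genes). In uvr8 5 were higher (32.8% of all genes), and 8 of 8 were lower with ABA (39.4% of all genes). SAUR62, SAUR63 and SAUR67 of this subfamily have near-identical copies, so their split of level is uncertain. The members of the subfamily differed in which treatment lowered them more. SAUR66 had 13.1, 12.39 and 12.24 TPM in white light, 5.47, 5.88 and 5.65 TPM with UV-B and 9.34, 9.77 and 7.48 TPM with ABA, so that UV-B gave the lower level (UV-B against ABA -0.56 ± 0.17 log2 units, adjusted p = 0.0161). SAUR67, here AT1G29510 as the deposited tables name it (RefSeq calls this locus SAUR68), had 9.05, 9.15 and 8.24 TPM in white light, 6.53, 8.1 and 7.24 TPM with UV-B and 3.69, 2.01 and 2.02 TPM with ABA, so that ABA gave the lower level (1.24 ± 0.21, adjusted p = 0.000305). In the SAUR41 subfamily all 3 tested members were lower with UV-B than with ABA (23.9% of all tested genes), with differences from -1.40 to -0.54 log2 units.

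The members with and without the CACATG match upstream were set side by side as a description. Of all tested genes, 39.4% were lower and 15.2% higher with ABA, and 27.8% lower and 12.3% higher with UV-B. In uvr8 under UV-B, 32.8% were higher than in Col-0 and 11.1% lower. Tested genes outside the set that hold CACATG were not compared. Of the 19 with it, 19 were lower with ABA, with a median change of -1.91 log2 units; of the 19 without it, 13 were lower and 4 higher, with a median of -0.90. With UV-B, 16 were lower and 1 higher with the match (median -1.01), and 11 lower and 2 higher without it (median -0.61). In uvr8 against Col-0 under UV-B, 14 were higher and 1 lower with it (median 0.70) and 9 higher and 1 lower without it (median 0.42). Of the 19 holders, 8 lie in the SAUR63 subfamily, whose members share sequence. Others are neighbours on a chromosome: SAUR1, SAUR4 and SAUR5, SAUR13 and SAUR15, and SAUR19, SAUR21 and SAUR22. The holders are thus not independent of each other. For TGTCTC, the 7 holders had medians of -0.62 with UV-B and -1.59 with ABA, and the 31 other members -0.92 and -1.15.

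A list of 35 genes, chosen for a link to SAUR genes or proteins, was measured, and 33 were tested. It held 9 PP2C-D phosphatase and 6 proton pump genes, the pathway in which SAUR proteins act. The others were genes of auxin receptors (6), auxin response factors (5), auxin synthesis (7) and brassinosteroid signalling (2). With UV-B 19 of the 33 fell (57.6%, against 27.8% of all genes), with a median of -0.46 log2 units. In uvr8 under UV-B 19 were higher (57.6%, against 32.8%) and 1, YUC6, lower (3.03%, against 11.1%). With ABA 10 rose (30.3%, against 15.2%) and 14 fell (42.4%, near the 39.4% of all genes). The largest fall with UV-B was in AT5G02760, a PP2C-D phosphatase, the kind of protein SAURs inhibit. It had 158.48, 149.24 and 156.98 TPM in white light, 31.18, 27.61 and 38.33 TPM with UV-B, 169.21, 200.19 and 188.56 TPM in uvr8 and 28.37, 33.64 and 36.99 TPM with ABA. Its libraries stood apart between white light and either treatment, with changes of -2.24 ± 0.12 and -2.21 ± 0.12 (adjusted p = 4.72e-08 and 4.14e-08). Among the 9 PP2C-D genes, 5 fell with UV-B, and 2 fell and 3 rose with ABA. Of the 5 tested pump genes, 2 fell with UV-B and 3 rose with ABA. The proton pump gene AHA2 fell by 0.88 ± 0.13 with UV-B (adjusted p = 0.000269) and had a change of -0.25 ± 0.13 with ABA (adjusted p = 0.128), while AHA11 rose by 0.67 ± 0.15 with ABA (adjusted p = 0.00285). Of the auxin receptors, AFB1 fell with both, by 1.32 ± 0.13 and 1.47 ± 0.13 (adjusted p = 1.16e-05 and 2.87e-06). Of the auxin synthesis genes, YUC8 fell by 1.77 ± 0.16 with UV-B (adjusted p = 3.99e-06) and YUC5 by 2.45 ± 0.17 with ABA (adjusted p = 2.97e-07), while YUC9 rose by 0.82 ± 0.18 with ABA (adjusted p = 0.00266). The largest rise with ABA was in ARF5, an activating auxin response factor (1.31 ± 0.14, adjusted p = 1.32e-05). BES1, a transcription factor of brassinosteroid signalling, fell by 1.28 ± 0.07 with UV-B and rose by 0.59 ± 0.07 with ABA (adjusted p = 3.63e-08 and 1.93e-05).

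The 31 further loci that RefSeq names SAUR gave 22 tested genes. With UV-B 3 of these were higher (13.6%, against 12.3% of all genes) and 11 lower (50.0%, against 27.8%). In uvr8 under UV-B 9 were higher (40.9%, against 32.8%) and 4 lower (18.2%, against 11.1%), and with ABA 5 were higher (22.7%, against 15.2%) and 14 lower (63.6%, against 39.4%). The medians were -0.27, 0.38 and -0.79 log2 units. Between uvr8 under UV-B and white-light Col-0, 1 of the 22 was called higher (4.55%, against 3.83%) and 0 lower (against 1.28%). It was SAUR48 (0.89 ± 0.22, adjusted p = 0.0406). SAUR14 and SAUR16, light-regulated like SAUR50, are among the 22 genes. SAUR14 had 49.7, 42.25 and 42.73 TPM in white light, 44.77, 53.62 and 47.04 TPM with UV-B and 12.26, 11.43 and 10.14 TPM with ABA. It did not pass the test with UV-B (0.11 ± 0.13, adjusted p = 0.541) and fell by 1.90 ± 0.13 with ABA (adjusted p = 2.48e-07). Under UV-B SAUR14 was lower in uvr8 than in Col-0 (-0.42 ± 0.13, adjusted p = 0.0191). SAUR16 was lower with UV-B (-0.529 ± 0.185, adjusted p = 0.0392) and with ABA (-2.37 ± 0.185, adjusted p = 8.12e-07). SAUR30, chosen after its values were seen, had 22.05, 21.57 and 24.88 TPM in white light and 67.45, 57.17 and 78.47 TPM with ABA, a rise of 1.52 ± 0.14 (adjusted p = 2.48e-06). With ABA it lay above every library of every member other than SAUR6 and SAUR78.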

How the data were processed

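RNA was sequenced from 10-day-old seedlings in 12 libraries, 3 in each of 4 groups, which were taken from the sample titles. Per the labels' protocols the replicates were grown separately, and TruSeq libraries were read on a HiSeq instrument as pairs of 150 bases. The authors deposited 1 table per library with a TPM value for each of 32833 loci. The unit was read from the values, which sum to 998197.5 to 998680.8 per library. The genome build was TAIR10, per the submitters' processing notes. Not given in the sources used here are the aligner, the counter, its use of the strand and its handling of reads with several matches. TPM keeps no read number, so depth is unknown and no counting interval is given.

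Values were analysed as log2(TPM + 1), a scale that understates the change of low genes. The 19922 genes that reached 1 TPM in 3 or more libraries were fitted with 4 group means in limma 3.58.1 (R 4.3.3) with a mean-variance trend. P-values of 5 comparisons were adjusted over all tested genes by Benjamini-Hochberg, with a threshold of 0.05, and ± beside a log2 change is the SE. The fit was also run on simulated data with normal noise and few changed genes. As many more genes were called here, that run gives no error rate for these calls. Tables were joined and motifs searched with Python 3.11.15 and pandas 2.3.3, copies were found with BLAST+ 2.17.0, and figures were drawn with matplotlib 3.10.9. Gene models, names and sequences came from RefSeq TAIR10.1, in which 32548 loci matched.

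Full values were given to the 6 called members with the largest rise and the 6 with the largest fall in each of the first 3 comparisons, among those with groups that do not overlap and a higher group of at least 5 TPM. They were also given to the highest member of each subfamily and to members called in opposite directions by UV-B and ABA. Other members with full values were chosen after their values were seen. The members, lists and motifs were chosen with earlier results of these data known. Alternatives were TMM-style scaling, no filter, no trend, log2(TPM + 0.1), a fit of the groups compared alone, a block for the replicate number, and leaving out each library in turn. Added after seeing the data were another library total and other choices of members.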

Additional observations from a re-analysis of the deposited data

How the results depend on the processing

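Of 47 named changes recomputed under the alternatives, 579 of 611 values kept their direction and their side of the threshold, 32 lost the call and 0 reversed. Those lost belong to 8 changes, which are given with their values in the report: SAUR15, SAUR56 and SAUR72 with UV-B, SAUR13, SAUR24, SAUR63 and SAUR72 in uvr8, and SAUR36 with ABA. Of 150 recomputed counts of called members, 141 stayed within 1.5 times. With 1 library left out, members called with UV-B ranged from 1 to 2 higher and 22 to 26 lower, in uvr8 against Col-0 from 18 to 21 higher and 1 to 2 lower, with ABA from 3 to 4 higher and 30 to 32 lower, and for UV-B against ABA from 16 to 18 higher and 6 to 8 lower. For uvr8 under UV-B against white light 0 to 1 were lower. The 60 tested genes that RefSeq names SAUR are a set chosen after seeing the data. Of these, 6 were higher with UV-B (12.3% of all genes) and 38 lower (27.8% of all genes). In uvr8 against Col-0, 32 were higher (32.8% of all genes) and 6 lower (11.1% of all genes). With ABA 9 were higher (15.2% of all genes) and 46 lower (39.4% of all genes). In uvr8 under UV-B 1 was higher than in white light (3.83% of all genes). Another set, also chosen after seeing the data, left out members that overlap a gene or have a near-identical copy (28 left). Of these, 1 was lower in uvr8 (11.1% of all genes) and 12 were higher with UV-B than with ABA (32.1% of all genes). Leaving near-identical copies out of the sum gave 394.5 TPM in white light, 280.1 with UV-B, 371.5 in uvr8 and 210.0 with ABA. Another library total, without organelle genes and genes under 300 bases and chosen after seeing the data, changed none of the 10 counts.

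Whether replicate numbers pair the samples was not settled. Of 18 same-numbered pairs of libraries, 7 had a correlation of deviations over 0.1, with a range of -0.13 to 0.26. Differently numbered pairs ranged from -0.29 to 0.31. With the replicate number as a block, 2 members were higher and 25 lower with UV-B, 23 higher and 2 lower in uvr8, 4 higher and 31 lower with ABA, 19 higher and 7 lower for UV-B against ABA, and 0 for uvr8 under UV-B against white light. TPM gives no depth, so members below about 1 TPM, among them SAUR56 and SAUR61 with ABA, carry a counting error that cannot be given here.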
